A study of Mus musculus with 6 samples.

Results

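The 10 genes described here, Klrb1b, Klrb1c, Klrb1f, Klrc1, Klrc2, Klrd1, Klre1, Klri1, Klri2 and Klrk1, encode C-type lectin-like receptors of natural killer (NK) cells and of some T cells. They were chosen by name, 10 of the 33696 genes in the count tables, and all 10 are protein-coding genes of mouse chromosome 6. Their transcripts were counted in CD45-positive mononuclear cells of mouse liver in droplets, cell by cell, and contigs of the T cell receptor (TCR) were assembled for the same suspensions. The mice formed 3 groups: Ja18-/- mice, called iNKT KO, on a 60% high-fat diet (HFD) with 0.25% hyodeoxycholic acid (HDCA, a bile acid), wild-type (WT) mice on that same diet with HDCA, and WT mice on the 60% HFD alone. Feeding lasted 12 weeks in all groups. The knockout lacks a TCR joining segment that invariant natural killer T (iNKT) cells need. A group is represented by a single RNA library with its TCR library. Differences between groups therefore have no replicate check, and the number, strain and age of the mice behind a library are not given in the sources used here.

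These receptors read ligands on neighbouring cells and raise or lower the killing and cytokine release of the cell that carries them. Some of the NKR-P1 receptors (Klrb1 genes), among them NKR-P1B and NKR-P1F, bind Clec2 family proteins. NKR-P1C, the product of Klrb1c, is the activating NK1.1 antigen by which mouse NK and NKT cells are recognised, and that of Klrb1b is inhibitory. The NKG2 receptors NKG2A (Klrc1, inhibitory) and NKG2C (Klrc2, activating) pair with CD94 (Klrd1) to bind the non-classical MHC molecule Qa-1, whose gene is H2-T23. NKG2D (Klrk1) is activating and binds stress-induced ligands of the Raet1, Ulbp1 and H60 families. KLRE1 (Klre1) pairs with KLRI1 (Klri1), which is inhibitory, or with KLRI2 (Klri2), which is activating. The liver is known to be rich in cells that carry such receptors: NK cells, tissue-resident group 1 innate lymphoid cells (ILC1), iNKT cells and gamma-delta T cells.

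No member gene was used to define a cell class. NK cells and ILC1 had no TCR contig, no unique molecular identifier (UMI, 1 captured transcript) of Cd3d or Cd3g, and at least 1 of Ncr1. NK cells then had a UMI of Eomes, Itga2 or S1pr5 and none of Itga1, Cd200r1, Cxcr6 or Il7r, and ILC1 had none of the first set and 2 or more of the second. iNKT cells had a TCR alpha contig joining TRAV11 or TRAV11D to TRAJ18, CD8 T cells had alpha and beta contigs with Cd8b1 and without Cd4, and gamma-delta T cells had Trdc, a gamma constant gene and Cd3 transcripts without a contig. In the order iNKT KO HFD+HDCA, WT HFD+HDCA and WT HFD, the classes held 422, 755 and 463 NK cells, 175, 80 and 74 ILC1, 1, 441 and 325 iNKT cells, 914, 1347 and 843 CD8 T cells and 59, 126 and 99 gamma-delta T cells. Where a sentence names the libraries beside its first values, further values in it follow that same order. The single iNKT cell of the knockout library is not used. ILC1 were the deeper class, with a median of 7728 (iNKT KO HFD+HDCA), 6636 (WT HFD+HDCA) and 8187 (WT HFD) UMIs per cell, against 4917, 5169 and 5121 in NK cells.

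Markers that no gate used matched the class names. Levels are CPM, UMIs per 1000000 UMIs of the class. Gzma, a granzyme of NK cells, was at 929 (iNKT KO HFD+HDCA), 734 (WT HFD+HDCA) and 819 (WT HFD) CPM in ILC1 and 11094, 11217 and 9639 CPM in NK cells, while Tmem176b, an ILC1 marker, was at 612, 415 and 649 CPM in ILC1 and 12.1, 8.35 and 4.14 CPM in NK cells. Zbtb16, the master regulator of iNKT cells, was at 148 (WT HFD+HDCA) and 129.8 (WT HFD) CPM in iNKT cells and at most 1.17 CPM in CD8 T cells. Traj18 had 0 (iNKT KO HFD+HDCA), 160 (WT HFD+HDCA) and 172 (WT HFD) UMIs in the 3 libraries. The libraries held 46600746 (iNKT KO HFD+HDCA), 70776925 (WT HFD+HDCA) and 44332213 (WT HFD) UMIs, with a median of 5119.5 to 5625 UMIs per kept cell, and any pair of them shared 67 to 93 barcodes, 1.03% to 1.30% of the smaller one. The gates leave some mixing: the summed levels of the B cell, hepatocyte, myeloid and platelet markers were 618 (iNKT KO HFD+HDCA), 633 (WT HFD+HDCA) and 473 (WT HFD) CPM in ILC1, mostly Cd74 and Ighm, and 141, 120.5 and 149.9 CPM in NK cells, with Alb at 0 in NK cells and at most 1.74 CPM in ILC1.

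Every NK cell and every ILC1 held a transcript of at least 1 of the 10 genes, and T cells held fewer. Summed over the genes, the level was 5763 (iNKT KO HFD+HDCA), 5726 (WT HFD+HDCA) and 5142 (WT HFD) CPM in ILC1, 6095, 5918 and 5875 CPM in NK cells, 1719, 1749 and 1698 CPM in gamma-delta T cells, 1723 and 1680.1 CPM in iNKT cells and 611, 685 and 624 CPM in CD8 T cells. The ratio of ILC1 over NK cells was 0.946 (iNKT KO HFD+HDCA), 0.968 (WT HFD+HDCA) and 0.875 (WT HFD), and every T cell class lay below both in every library. The ILC1 level depended on the gate. With Ncr1 not required, the wider ILC1 gate also took in cells without an Ncr1 UMI, which were not checked with markers. It held 270 (iNKT KO HFD+HDCA), 215 (WT HFD+HDCA) and 144 (WT HFD) cells, at 3719, 1916 and 2569 CPM. NK cells under that setting (437, 771 and 479 cells) were at 6074, 5899 and 5806 CPM. The gamma-delta T and iNKT values overlapped, and CD8 T cells were the lowest of the 5 classes. With each cell thinned to 2000 UMIs, a cell carried on average 5.46 (iNKT KO HFD+HDCA), 5.64 (WT HFD+HDCA) and 5.05 (WT HFD) of the 10 genes in ILC1, 5.64, 5.54 and 5.54 in NK cells, 1.93, 2.08 and 1.9 in gamma-delta T cells, 2.06 and 2.09 in iNKT cells and 0.802, 0.901 and 0.811 in CD8 T cells.

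B cells, which should lack these receptors, set the background from free RNA. Their summed level was 9.59 (iNKT KO HFD+HDCA), 6.66 (WT HFD+HDCA) and 8.5 (WT HFD) CPM, and 3.1, 2.89 and 2.97% of them held any member UMI at a median depth of 4243, 4394 and 4505 UMIs, against 82.1, 84.3 and 78.5% of CD8 T cells at 8132, 7663 and 7753 UMIs. After thinning, the shares were 1.17% (iNKT KO HFD+HDCA), 1.38% (WT HFD+HDCA) and 1.06% (WT HFD) in B cells and 54.1, 55.4 and 50.4% in CD8 T cells. Among iNKT cells, 93.4% (95% Clopper-Pearson interval 90.7 to 95.6) held any member UMI in WT HFD+HDCA and 87.7% (83.6 to 91.1) in WT HFD. CD4 T cells stood between B and CD8 T cells, at a summed level of 191 (iNKT KO HFD+HDCA), 199.7 (WT HFD+HDCA) and 180.2 (WT HFD) CPM.

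**Figure D1:**
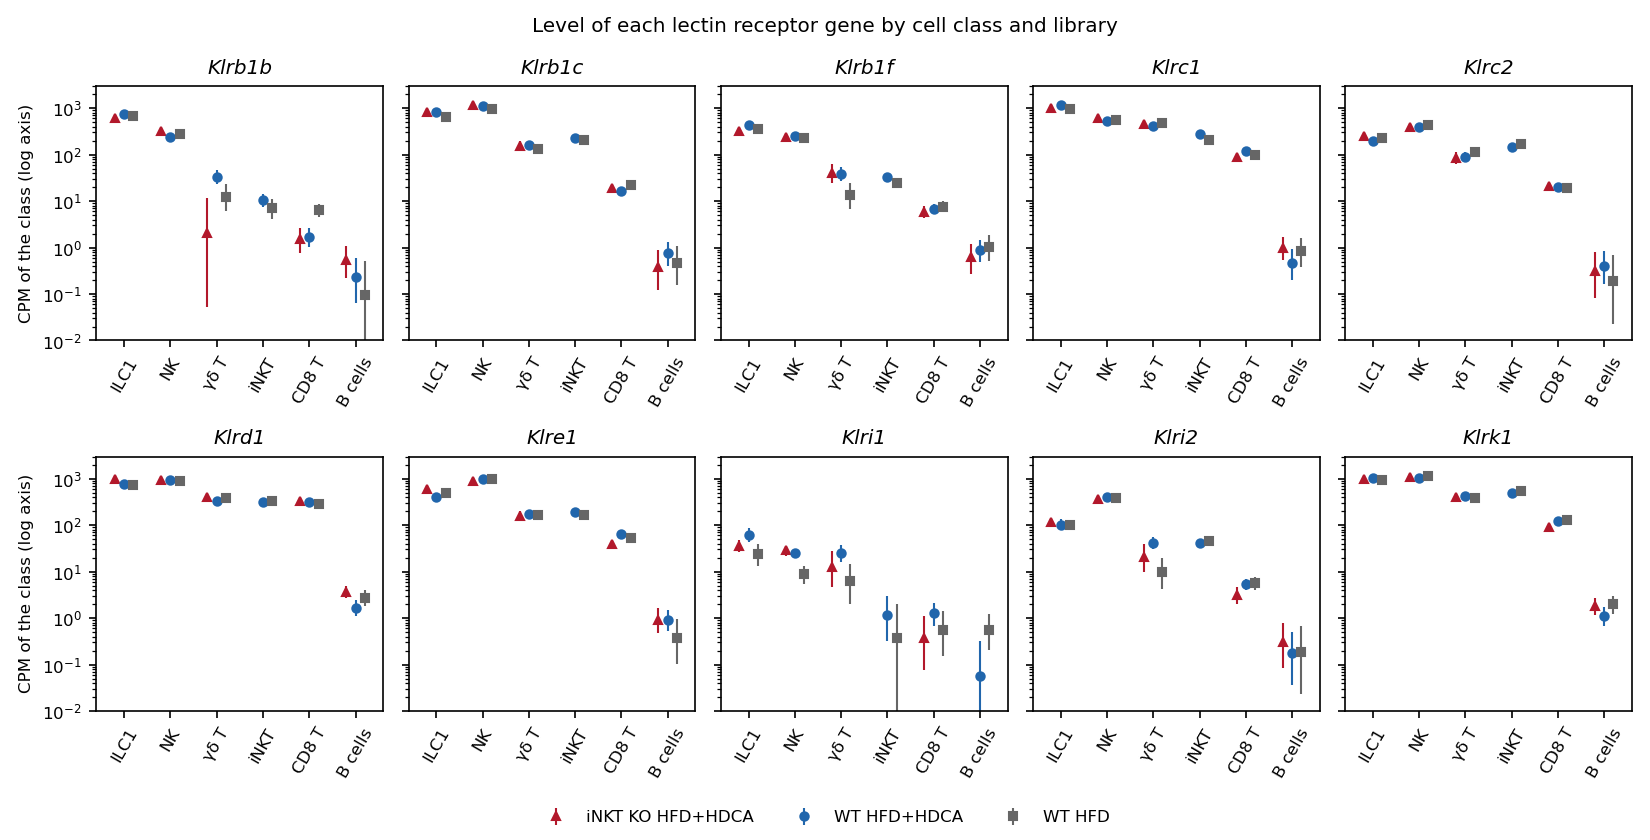
Level of each of the 10 genes in 5 lymphocyte classes and in B cells as background, as CPM of the class on a log axis. Triangles, circles and squares are the iNKT KO HFD+HDCA, WT HFD+HDCA and WT HFD libraries, bars are exact Poisson 95% intervals, and a class with no UMI or with 1 cell has no point. Klrd1 stands between 287 and 402 CPM in all 3 T cell classes, and all 10 genes, Klrd1 included, lie lower in CD8 T cells than in NK cells and ILC1.

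Gated on Ncr1, ILC1 and NK cells carried similar totals but different receptors. These ILC1 were higher in Klrb1b, Klrc1, Klrb1f and Klri1, and lower in Klri2, Klre1, Klrc2 and Klrb1c. The contrast was tested across all genes with edgeR's quasi-likelihood fit on class sums, with class and library as terms. Its p-values set a class difference against the variation that these terms leave, pooled over the classes and moderated across genes. The 3 libraries differ in genotype or diet and are not replicates of a group. Among 11431 genes tested, 10.6% were higher and 8.97% lower in ILC1 at an adjusted p under 0.05, against 4 and 4 of the 10 members. The median log2 difference was -0.14 over the members and 0.00 over all genes. This test was added after the levels had been seen. Scaled by class totals in place of TMM factors, 10.3% of genes were higher and 9.22% lower, with 4 and 4 of the members. With Ncr1 not required, 23.9% of 11917 genes were higher and 16.7% lower in cells of the wider ILC1 gate, and 0 and 7 of the members. Klri2, Klre1, Klrc2 and Klrb1c were lower under that gate too, and Klrk1 (-1.25, adjusted p = 1.75e-05), Klrd1 (-0.68, adjusted p = 4.27e-05) and Klrb1f (-0.53, adjusted p = 0.00796) also passed as lower. Klrb1b (0.14, adjusted p = 0.658), Klri1 (0.02, adjusted p = 0.978) and Klrc1 (-0.28, adjusted p = 0.188) did not pass. The higher levels in ILC1 given next thus hold for the gate with Ncr1.

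Among the NKR-P1 genes, Klrb1b was at 617 (iNKT KO HFD+HDCA), 751 (WT HFD+HDCA) and 662 (WT HFD) CPM in ILC1, against 315, 244 and 273 CPM in NK cells. The groups did not overlap, and the log2 difference was 1.30 ± 0.17 (SE, adjusted p = 5.09e-06). Klrb1f, whose product binds a Clec2 protein, was at 328 (iNKT KO HFD+HDCA), 425 (WT HFD+HDCA) and 357 (WT HFD) CPM in ILC1 and 236, 253 and 232 CPM in NK cells, a log2 difference of 0.62 ± 0.10 (SE, adjusted p = 8.05e-05). Klrb1c went the other way, with 844 (iNKT KO HFD+HDCA), 840.4 (WT HFD+HDCA) and 659 (WT HFD) CPM in ILC1, against 1161, 1117 and 981 CPM in NK cells (log2 difference -0.46 ± 0.09 SE, adjusted p = 5.40e-04). With DESeq2 the Klrb1b difference was 1.25 with an SE of 0.69 and did not pass (adjusted p = 0.245). Klrb1b, Klrb1c and the related Klrb1a are near-identical in parts, so reads may have been assigned to the wrong copy, and this was not tested.

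Among the NKG2 genes, the inhibitory Klrc1 and the activating Klrc2 were shifted in opposite directions. Klrc1 was at 1003 (iNKT KO HFD+HDCA), 1144 (WT HFD+HDCA) and 962 (WT HFD) CPM in ILC1, against 621, 530.5 and 549 CPM in NK cells, a log2 difference of 0.88 ± 0.10 (SE, adjusted p = 7.78e-07). Klrc2 was at 254 (iNKT KO HFD+HDCA), 199 (WT HFD+HDCA) and 229 (WT HFD) CPM in ILC1 and 399.7, 397 and 432 CPM in NK cells, a difference of -0.82 ± 0.09 (SE, adjusted p = 7.78e-07). For both genes all 3 libraries had the same order and the classes did not overlap. Their partner Klrd1, at 984 (iNKT KO HFD+HDCA), 774 (WT HFD+HDCA) and 741 (WT HFD) CPM in ILC1 and 959, 933 and 887 CPM in NK cells, did not pass (-0.14 ± 0.08 SE, adjusted p = 0.256), and without the iNKT KO HFD+HDCA library it was -0.26 (adjusted p = 0.0244). Klrk1, for NKG2D, was at 994 (iNKT KO HFD+HDCA), 1016 (WT HFD+HDCA) and 922 (WT HFD) CPM in ILC1, against 1108, 1028 and 1123 CPM in NK cells, and did not pass either (-0.13 ± 0.09 SE, adjusted p = 0.36). Klrc1 and Klrc2 also share long stretches of sequence with Klrc3, with the same limit on read assignment.

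The KLRE1 family was lower in ILC1 except for Klri1. Klri2 had 115 (iNKT KO HFD+HDCA), 103 (WT HFD+HDCA) and 103 (WT HFD) CPM in ILC1, against 368, 399 and 381 CPM in NK cells (log2 difference -1.79 ± 0.14 SE, adjusted p = 6.01e-09), the farthest apart of the 10 genes. Klre1 had 589 (iNKT KO HFD+HDCA), 411 (WT HFD+HDCA) and 484 (WT HFD) CPM in ILC1 and 899, 991 and 1007 CPM in NK cells (-0.91 ± 0.12 SE, adjusted p = 9.58e-06). Klri1, a rare transcript, had 36 (iNKT KO HFD+HDCA), 61 (WT HFD+HDCA) and 23.4 (WT HFD) CPM in ILC1 and 28.5, 24.6 and 8.66 CPM in NK cells, at 0.96 ± 0.25 (SE, adjusted p = 0.00796), and it did not pass without the WT HFD+HDCA library (0.71, adjusted p = 0.202) or without the library term (adjusted p = 0.121). The ILC1 of the knockout lay nearer to NK cells than those of either WT library for Klrb1b, Klrb1f, Klrc1, Klrc2, Klre1, Klri1 and Klri2. Their summed level of 6 NK markers (Prf1, Gzma, Gzmb, Irf8, Tbx21 and Txk) was also the highest, at 2914 (iNKT KO HFD+HDCA), 1991 (WT HFD+HDCA) and 2337 (WT HFD) CPM, and its part in these differences was not tested.

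**Figure D2:**
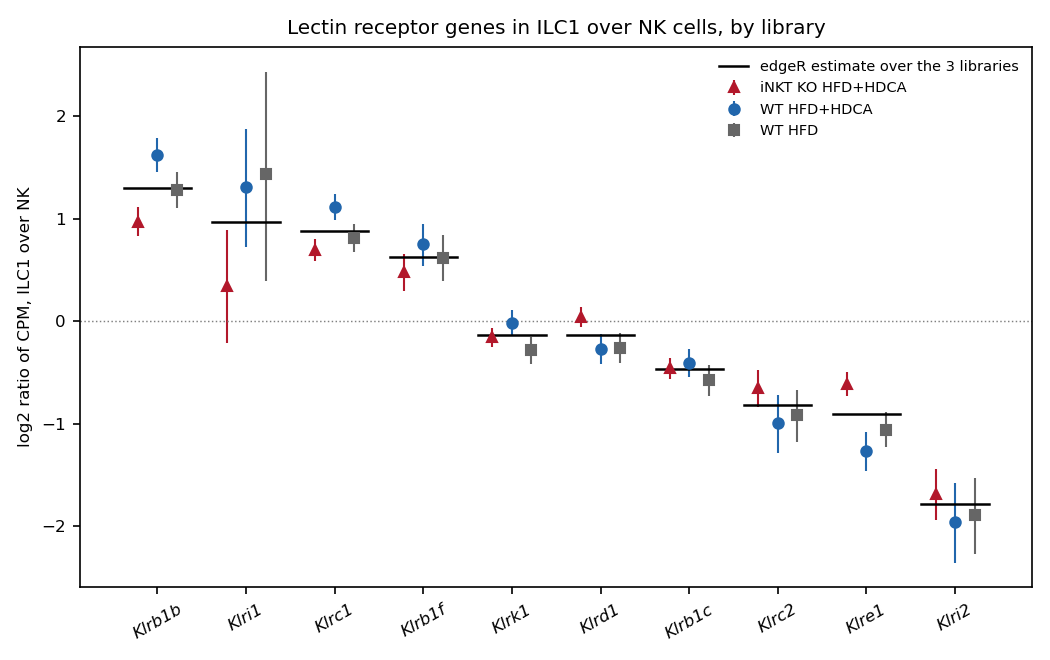
Log2 ratio of CPM in ILC1 over NK cells for each gene in each library, with conditional exact 95% intervals as bars, and the edgeR estimate over the 3 libraries as a black line. Klrb1b, Klri1, Klrc1 and Klrb1f lie above 0 in every library, and Klrb1c, Klrc2, Klre1 and Klri2 below 0 in every library.

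The upstream sequences of Klrc1 with Klrc2 and of Klrb1b with Klrb1c, pairs with opposite shifts, are shown. The genes of each pair lie close together and encode related receptors. Klri1 and Klri2 also shifted in opposite directions, but Klri2 had no promoter entry. Klrc2 and Klrb1b had 2 entries each, of which the first is shown. Each sequence is the 250 bases before the annotated gene start on the minus strand of chromosome 6, from RefSeq (GRCm38.p6), written 5′ to 3′. Capitals mark TGTGGT (Runx) or GGAAGT (ETS) on either strand, with no overlap between motifs in these 4 windows.
Klrc1, chr6:129678974-129679223: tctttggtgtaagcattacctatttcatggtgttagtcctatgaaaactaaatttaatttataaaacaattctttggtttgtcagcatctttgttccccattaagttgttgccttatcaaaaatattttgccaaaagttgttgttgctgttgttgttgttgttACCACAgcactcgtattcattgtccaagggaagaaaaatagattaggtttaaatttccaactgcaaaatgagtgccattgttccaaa
Klrc2, chr6:129660597-129660846: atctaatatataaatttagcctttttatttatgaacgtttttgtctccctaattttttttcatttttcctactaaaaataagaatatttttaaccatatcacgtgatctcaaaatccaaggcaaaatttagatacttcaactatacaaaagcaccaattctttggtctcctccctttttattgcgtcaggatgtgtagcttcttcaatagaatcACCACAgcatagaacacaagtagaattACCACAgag
Klrb1b, chr6:128826316-128826565: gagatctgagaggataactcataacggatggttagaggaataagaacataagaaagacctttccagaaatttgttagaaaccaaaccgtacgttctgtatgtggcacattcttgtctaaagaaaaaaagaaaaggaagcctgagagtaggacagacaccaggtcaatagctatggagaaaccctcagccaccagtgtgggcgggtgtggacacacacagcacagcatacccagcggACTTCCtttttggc
Klrb1c, chr6:128788642-128788891: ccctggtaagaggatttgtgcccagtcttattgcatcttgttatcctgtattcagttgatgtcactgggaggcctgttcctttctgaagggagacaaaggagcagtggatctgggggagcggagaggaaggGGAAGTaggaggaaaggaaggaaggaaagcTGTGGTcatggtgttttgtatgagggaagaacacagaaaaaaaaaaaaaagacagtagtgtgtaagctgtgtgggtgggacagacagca

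The Runx letters lay 87 bases before the start in Klrc1, 36 and 9 bases before it in Klrc2 and 89 bases before it in Klrb1c, while the Klrb1b window had the ETS letters 14 bases before its start. Of the 10 genes, 8 had an entry in the promoter table, with 11 entries in all. The Runx letters were in the windows of 5 of the 8 genes (Klrb1c, Klrc1, Klrc2, Klre1 and Klrk1). By window they were in 6 of the 11 entries, and in 14% of all 32851 windows of this length. The ETS letters were in the windows of Klrb1b, Klrb1c and Klrb1f, 3 of the 8 genes. By window they were in 4 of the 11 entries, and in 19.7% of all windows. The T-box letters AGGTGT, on either strand, were in 0 of the 11 entries, against 11.8% of all windows. These are matches of letters only.

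iNKT cells carried 7 of the 10 genes at higher levels than CD8 T cells, with Klrb1c, Klri2 and Klrc2 the farthest apart. In the same fit, 13.5% of genes were higher and 13.3% lower in iNKT cells, against 7 and 0 of the members. Klrb1c had 226 (WT HFD+HDCA) and 207 (WT HFD) CPM in iNKT cells, against 18.9 (iNKT KO HFD+HDCA), 16.6 (WT HFD+HDCA) and 22.1 (WT HFD) CPM in CD8 T cells, a log2 difference of 3.37 ± 0.12 (SE, adjusted p = 2.03e-14). Klrc2 had 149 (WT HFD+HDCA) and 166 (WT HFD) CPM in iNKT cells and 21.4 (iNKT KO HFD+HDCA), 20.1 (WT HFD+HDCA) and 18.7 (WT HFD) CPM in CD8 T cells (2.79 ± 0.11 SE, adjusted p = 4.76e-14). Klri2 had 41.6 (WT HFD+HDCA) and 45.6 (WT HFD) CPM in iNKT cells and 3.12 (iNKT KO HFD+HDCA), 5.38 (WT HFD+HDCA) and 5.62 (WT HFD) CPM in CD8 T cells (2.98 ± 0.22 SE, adjusted p = 1.44e-09). Klrk1 (1.94), Klrb1f (1.91), Klre1 (1.55) and Klrc1 (1.02) also rose on this log2 scale, with edgeR adjusted p of at most 5.38e-07.

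Klrd1 was the exception among the abundant genes. It had 314 (WT HFD+HDCA) and 326 (WT HFD) CPM in iNKT cells, against 337 (iNKT KO HFD+HDCA), 321 (WT HFD+HDCA) and 287 (WT HFD) CPM in CD8 T cells, and the log2 difference of -0.09 ± 0.09 (SE, adjusted p = 0.493) did not pass. Klrb1b had 10.4 (WT HFD+HDCA) and 6.98 (WT HFD) CPM in iNKT cells, with UMIs in 2.72 and 3.08% of them, against 1.5 (iNKT KO HFD+HDCA), 1.7 (WT HFD+HDCA) and 6.32 (WT HFD) CPM in CD8 T cells (1.41 ± 0.54 SE, adjusted p = 0.059), and passed without the WT HFD library (2.46, adjusted p = 8.81e-04). Klri1 had 4 UMIs in WT HFD+HDCA and 1 in WT HFD in all iNKT cells together. Scaling by class totals in place of TMM factors moved the median of all genes by 0.17 here and by 0.14 between gamma-delta and CD8 T cells on the log2 scale, so that 25.2% of genes were higher and 8.68% lower in iNKT cells, with 8 members higher and 0 lower. By the same scaling, 12.1% of genes were higher and 3.23% lower in gamma-delta T cells.

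In gamma-delta T cells, 9 of the 10 genes were higher than in CD8 T cells, where 6.74% of all genes were higher and 5.2% lower. Klrc1 had 449.6 (iNKT KO HFD+HDCA), 421 (WT HFD+HDCA) and 483 (WT HFD) CPM in gamma-delta T cells, against 90.2, 121 and 97.9 CPM in CD8 T cells (1.97 ± 0.11 SE, adjusted p = 4.89e-11). Klrb1c had 155 (iNKT KO HFD+HDCA), 164 (WT HFD+HDCA) and 132 (WT HFD) CPM in gamma-delta T cells (2.84 ± 0.14 SE, adjusted p = 5.35e-12), and Klrk1 395, 424 and 375 CPM (1.64 ± 0.10 SE, adjusted p = 3.83e-10). Klri1, with 12.5 (iNKT KO HFD+HDCA), 25.4 (WT HFD+HDCA) and 6.25 (WT HFD) CPM in gamma-delta T cells and 0.375, 1.26 and 0.562 CPM in CD8 T cells, differed most (4.15 ± 0.45 SE, adjusted p = 1.08e-06). Klrd1 did not pass (0.09 ± 0.09 SE, adjusted p = 0.64), but by class totals it did, at 0.25 (adjusted p = 0.0448), with 10 members higher and 0 lower. The Klrb1b difference (2.56) did not pass without the WT HFD+HDCA library, where it was 0.98 (adjusted p = 0.57).

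Set against iNKT cells, gamma-delta T cells had a similar summed level but more Klri1 and Klrc1 and less Klrc2 and Klrb1c. Here 5.38% of genes were higher and 4.09% lower in gamma-delta T cells, and 2 and 2 of the members. By class totals 5.11% of genes were higher and 4.63% lower, again with 2 and 2 members. The log2 differences were 4.24 ± 0.58 (SE, adjusted p = 3.67e-05) for Klri1, 0.95 ± 0.12 (SE, adjusted p = 1.95e-05) for Klrc1, -0.66 ± 0.13 (SE, adjusted p = 0.00131) for Klrc2 and -0.53 ± 0.13 (SE, adjusted p = 0.00868) for Klrb1c. Without the WT HFD+HDCA library, which leaves 1 iNKT sum assumed to vary like the others, Klri1, Klrc2 and Klrb1c did not pass (adjusted p = 0.0737, 0.0502 and 0.056), and Klri2 did, at -1.68 (adjusted p = 0.00748). Without the WT HFD library Klrb1c did not pass (adjusted p = 0.0629), and without the knockout library Klrk1 did (-0.30, adjusted p = 0.0346). Under strict gates neither Klrc2 nor Klrb1c passed. The contrasts between T cell classes share their class sums and are not independent of each other.

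Gamma-delta T cells were mixed in these receptors. Of them, 5 (iNKT KO HFD+HDCA), 15 (WT HFD+HDCA) and 10 (WT HFD) gamma-delta T cells held Ncr1 with Eomes, Itga2 or S1pr5 and summed to 3355, 3134 and 2473 CPM, and without them the class stood at 1524, 1494 and 1599 CPM.

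Among NK cells, the share with a Klrc2 UMI was smaller in cells with Klrc1 than in cells without it. After thinning to 2000 UMIs per cell, a Klrc2 UMI was seen in 40.9% (iNKT KO HFD+HDCA), 41.7% (WT HFD+HDCA) and 37.1% (WT HFD) of NK cells with a Klrc1 UMI, against 65.7, 63.8 and 64.7% of those without. The order was the same in all 3 libraries. In unthinned cells the shares were 65.7% (iNKT KO HFD+HDCA), 68.1% (WT HFD+HDCA) and 71.1% (WT HFD), against 90.6, 88.2 and 89.3%. CD8 T cells showed the opposite order: 11% (iNKT KO HFD+HDCA), 11% (WT HFD+HDCA) and 5.77% (WT HFD) with a Klrc1 UMI, against 2.21, 2.47 and 1.9% without one. In ILC1 the order was mixed, at 34.7% (iNKT KO HFD+HDCA), 36.8% (WT HFD+HDCA) and 31.4% (WT HFD), against 55.1, 25 and 43.5%. Gamma-delta T cells had the order of CD8 T cells in every library, on 18 (iNKT KO HFD+HDCA), 48 (WT HFD+HDCA) and 44 (WT HFD) cells with Klrc1. Their shares were 22.2, 16.7 and 20.5%, against 7.5, 14.3 and 9.09%. In iNKT cells the shares were 25.4% (WT HFD+HDCA) and 30.6% (WT HFD), against 21.6 and 25.3%. Cells are not replicates, so these shares are a description with no test.

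**Figure D3:**
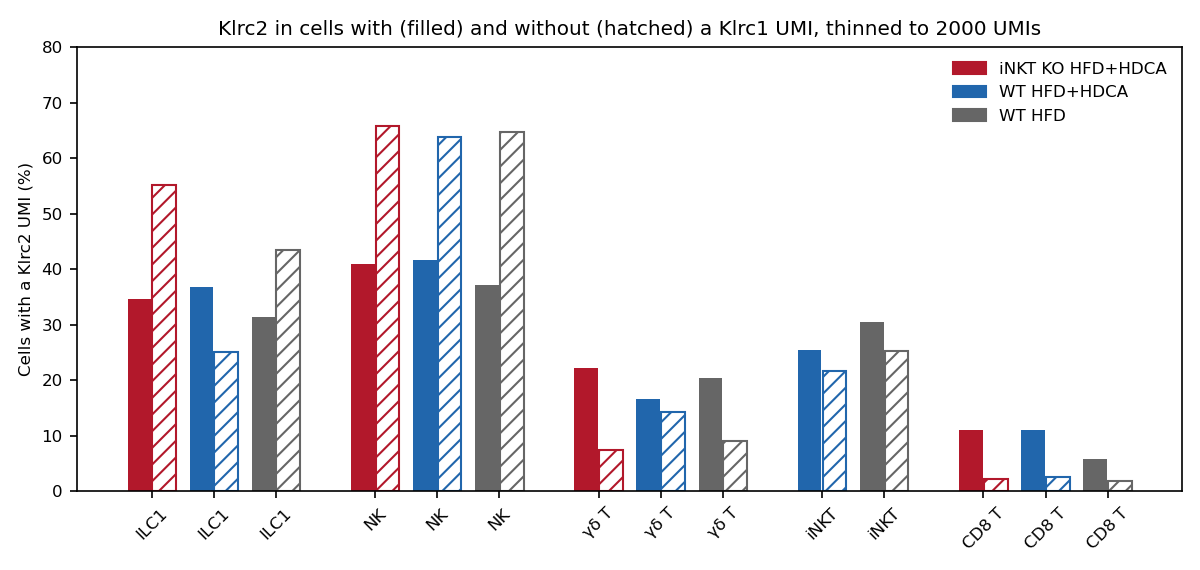
Share of cells with a Klrc2 UMI among cells with a Klrc1 UMI (filled) and without one (hatched), after thinning each cell to 2000 UMIs, by class and library. The hatched bar is the taller one in NK cells of all 3 libraries, and the filled one in CD8, gamma-delta and iNKT T cells of every library shown.

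The shared partner Klrd1 was present in nearly all NK cells whichever NKG2 gene they carried: 95% (iNKT KO HFD+HDCA), 97.5% (WT HFD+HDCA) and 96.2% (WT HFD) of those with a Klrc1 UMI and 97.2, 97.6 and 96.2% of those with a Klrc2 UMI, without thinning. In CD8 T cells, 37.9% (iNKT KO HFD+HDCA), 43.6% (WT HFD+HDCA) and 43.5% (WT HFD) of cells with a Klrk1 UMI also held Klrc1 after thinning, against 7.82, 10.0 and 6.98% of those without.

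NK cells with and without Klrg1 differed in these receptors. Klrg1 marks mature NK cells, and NK cells with a Klrg1 UMI held more Klrb1b and Klrc1, both for inhibitory receptors. Klrb1b was at 409.8 (iNKT KO HFD+HDCA), 286 (WT HFD+HDCA) and 347 (WT HFD) CPM with Klrg1, against 204, 185 and 212 CPM without. Klrc1 was at 737 (iNKT KO HFD+HDCA), 571 (WT HFD+HDCA) and 641 (WT HFD) CPM with Klrg1, against 485, 472 and 474 CPM without. Klrc2 ran the other way, at 386 (iNKT KO HFD+HDCA), 352 (WT HFD+HDCA) and 373 (WT HFD) CPM with Klrg1, against 415, 461 and 481 CPM without, and so did Klri2 (328, 378 and 354 CPM, against 416, 429 and 403 CPM). Klrb1c differed little, at 1204 (iNKT KO HFD+HDCA), 1131 (WT HFD+HDCA) and 991 (WT HFD) CPM with Klrg1 and 1111, 1097 and 972 CPM without. NK cells with a Klrg1 UMI made up 55% (iNKT KO HFD+HDCA), 55.9% (WT HFD+HDCA) and 41% (WT HFD) of the class. In iNKT cells, a split by a Tbx21 UMI left the summed level alike, at 1716 (WT HFD+HDCA) and 1679 (WT HFD) CPM with it and 1754 and 1687 CPM without.

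CD8 T cells with little effector transcript kept Klrd1 and almost none of the other 9 genes. CD8 T cells with 3 or more UMIs of Ccl5, Cxcr3 and Nkg7, genes of effector and memory cells, had 339 (iNKT KO HFD+HDCA), 327 (WT HFD+HDCA) and 293 (WT HFD) CPM of Klrd1, and those with fewer had 323, 259.9 and 236 CPM. For Klrk1 the values were 106 (iNKT KO HFD+HDCA), 135 (WT HFD+HDCA) and 139.7 (WT HFD) CPM with 3 or more, against 0.994, 15.9 and 1.46 CPM with fewer. For Klrc1 they were 103 (iNKT KO HFD+HDCA), 132 (WT HFD+HDCA) and 108 (WT HFD) CPM, against 0.994, 10.6 and 1.46 CPM, and for Klre1 46, 71.5 and 57.4 CPM, against 0 CPM in every library. The cells with fewer than 3 such UMIs were 17% (iNKT KO HFD+HDCA), 10.3% (WT HFD+HDCA) and 11.6% (WT HFD) of the class and held 155, 139 and 98 cells. In the whole class a Klrd1 UMI was seen in 78.6% (iNKT KO HFD+HDCA), 76.6% (WT HFD+HDCA) and 73.4% (WT HFD) of cells, against 1.13, 0.643 and 1.04% of B cells.

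**Figure D4:**
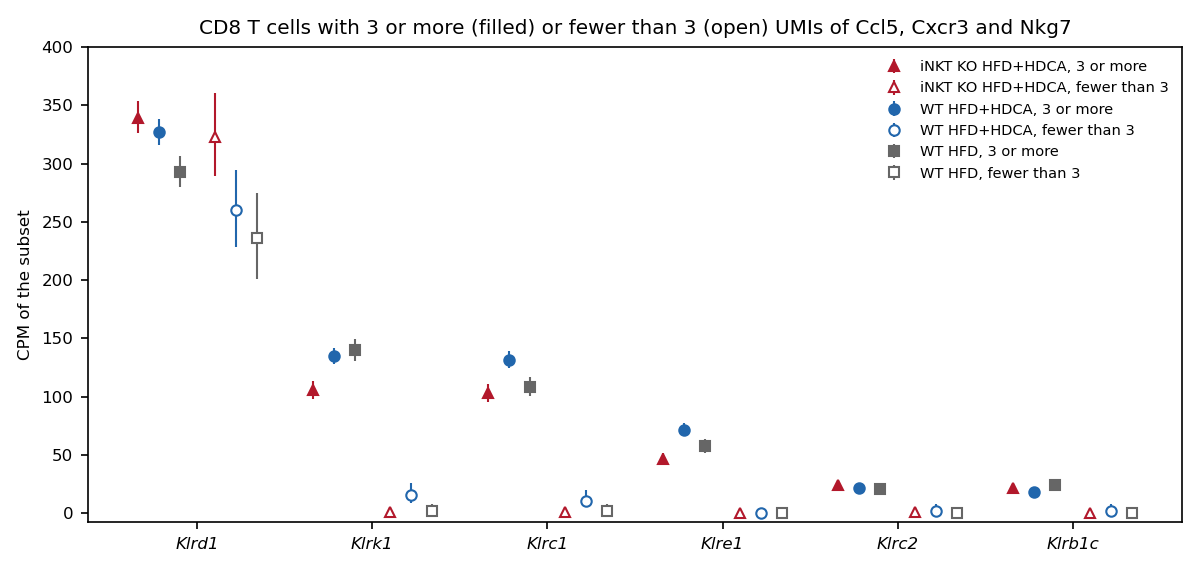
Level of 6 genes in CD8 T cells with 3 or more UMIs of Ccl5, Cxcr3 and Nkg7 (filled) and with fewer than 3 (open), as CPM of the subset with exact Poisson 95% intervals, by library. Klrd1 stands at 236 CPM or more in both subsets, and the open points of the other 5 genes stay at or below 15.9 CPM.

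Expanded CD8 T cell clones carried more Klrb1c, Klrb1f, Klrc1, Klre1 and Klrk1 than single cells in all 3 libraries, and Klrd1 had no such order. Cells in clonotypes of 2 or more, with the same CDR3 nucleotide sequences of both chains, had 198 (iNKT KO HFD+HDCA), 239 (WT HFD+HDCA) and 170.3 (WT HFD) CPM of Klrk1, against 76.6, 93.7 and 113 CPM in cells whose clonotype was seen once. Klrc1 had 193 (iNKT KO HFD+HDCA), 205 (WT HFD+HDCA) and 136 (WT HFD) CPM in expanded cells, against 74.6, 98.7 and 86.5 CPM in single ones, and Klre1 86, 106 and 73.9 CPM, against 33.2, 54.5 and 45.3 CPM. Klrd1 was at 309 (iNKT KO HFD+HDCA), 361 (WT HFD+HDCA) and 284 (WT HFD) CPM in expanded cells and 342, 310.2 and 288 CPM in single ones. Single clones differed widely: the largest clone of WT HFD, with 71 cells, had 16.4 CPM of Klrk1, while the 11 cells of its second clone had 560.2 CPM. In WT HFD+HDCA the largest clone, of 28 cells, had 325 CPM, and in the knockout, of 18 cells, 149 CPM.

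With HDCA in WT mice the summed level of the 10 genes was within 1.11-fold of WT HFD in every class. The ratio of WT HFD+HDCA over WT HFD was 1.01 (95% counting interval 0.988 to 1.03) in NK cells, 1.11 (1.06 to 1.17) in ILC1, 1.03 (0.987 to 1.07) in iNKT cells, 1.1 (1.06 to 1.14) in CD8 T cells and 1.03 (0.959 to 1.11) in gamma-delta T cells. Intervals cover counting error only. With Ncr1 not required, cells of the wider ILC1 gate (215 and 144 cells) were at 0.746, with 9 of the 10 genes between 0.542 and 0.827 and Klri1 at 1.68. Under stricter gates gamma-delta T cells were at 0.883. A ratio of at least 1.5 either way, with 20 or more UMIs over both libraries, was found for 1 of 10 genes in NK cells (higher), 1 in ILC1 (higher), 0 in iNKT cells, 1 in CD8 T cells (lower) and 4 in gamma-delta T cells (higher). Over all genes the shares past this limit upward were 4.47%, 7.33%, 4.99%, 4.22% and 8.25% in these 5 classes, and downward 3.64%, 10%, 4.06%, 4.39% and 8.75%. The median log2 ratio was 0.02 over the 10 measured members and 0.00 over all 10467 genes tested in NK cells, 0.13 over the 9 measured members and 0.02 over all 10360 genes tested in iNKT cells and 0.24 over the 10 measured members and -0.02 over all 8026 genes tested in gamma-delta T cells.

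Klri1, the inhibitory partner of KLRE1, was higher with HDCA in the 3 classes where it was measured. In NK cells it had 24.6 CPM in WT HFD+HDCA (109 UMIs in 63 cells) and 8.66 CPM in WT HFD (23 UMIs in 15 cells), a ratio of 2.84 (1.8 to 4.67). In ILC1 the levels were 61 CPM in WT HFD+HDCA and 23.4 CPM in WT HFD (2.61, interval 1.39 to 5.15), and in gamma-delta T cells 25.4 and 6.25 CPM (4.07, interval 1.53 to 13.6). The same 2 libraries stand behind all 3 ratios, and NK cells with a Klrg1 UMI were 55.9% of the class in WT HFD+HDCA, against 41% in WT HFD. Among NK cells without a Klrg1 UMI the Klri1 ratio was 1.55. In the gamma-delta T cells of WT HFD the gene rested on 5 UMIs.

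In gamma-delta T cells, Klri2 (4.17, interval 1.93 to 10.3), Klrb1f (2.81, interval 1.41 to 6.09) and Klrb1b (2.68, interval 1.29 to 6.1) were also above 1.5-fold with HDCA, all on 8 to 11 UMIs in WT HFD. In CD8 T cells, Klrb1b was lower, at 1.7 CPM in WT HFD+HDCA and 6.32 CPM in WT HFD (0.27, interval 0.149 to 0.47), and 42.2% of its 45 UMIs in WT HFD came from 1 cell. The genes at high levels moved less: in iNKT cells Klrc1 had 273 CPM in WT HFD+HDCA and 205 CPM in WT HFD (1.33, interval 1.2 to 1.48), and Klrk1 had 483 CPM in WT HFD+HDCA and 534 CPM in WT HFD (0.904, interval 0.842 to 0.97). In CD8 T cells Klrc1 had 121 CPM in WT HFD+HDCA and 97.9 CPM in WT HFD (1.24, interval 1.13 to 1.36).

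The knockout on HDCA held NK receptor levels close to those of WT mice on HDCA, and lower levels of several genes in CD8 T cells. This comparison shares the WT HFD+HDCA library with the one above. The summed ratio of iNKT KO HFD+HDCA over WT HFD+HDCA was 1.03 (1.01 to 1.05) in NK cells, 1.01 (0.966 to 1.05) in ILC1, 0.893 (0.861 to 0.926) in CD8 T cells and 0.983 (0.904 to 1.07) in gamma-delta T cells. With Ncr1 not required, cells of the wider ILC1 gate were at 1.94 (270 and 215 cells). Past 1.5-fold were 0 of 10 genes in NK cells, 1 in ILC1, 2 in CD8 T cells and 3 in gamma-delta T cells, all lower, where 5.84%, 8.53%, 5.32% and 9.96% of all genes were lower and 4.12%, 10.6%, 3.91% and 13.4% higher. The median log2 ratio was 0.05 over the 10 measured members and -0.02 over all 10420 genes tested in NK cells, and -0.23 over the 9 measured members and -0.04 over all 12137 genes tested in CD8 T cells.

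In CD8 T cells of the knockout, Klre1 had 40.2 CPM, against 65.5 CPM in WT HFD+HDCA (0.614, interval 0.537 to 0.701), and Klri2 had 3.12 CPM, against 5.38 CPM (0.58, interval 0.349 to 0.94). Klrk1 (0.742, interval 0.678 to 0.812) and Klrc1 (0.743, interval 0.678 to 0.814) were lower by less than 1.5-fold, and Klrd1 was at 1.05 (0.999 to 1.1). Cells with fewer than 3 UMIs of Ccl5, Cxcr3 and Nkg7 were a larger share of CD8 T cells in the knockout, at 17%, against 10.3% in WT HFD+HDCA. Among CD8 T cells with 3 or more, Klre1 had 46 CPM in the knockout, against 71.5 CPM in WT HFD+HDCA, Klrk1 106 CPM, against 135 CPM, and Klrc1 103 CPM, against 132 CPM. The part of this makeup in the ratios of the whole class was not tested. Expanded clonotypes held 18.3% of 914 CD8 T cells in the knockout and 27% of 1347 in WT HFD+HDCA. Such a share depends on the number of cells sampled, which was not made equal.

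In ILC1 of the knockout, Klri1 had 36 CPM, against 61 CPM in WT HFD+HDCA (0.591, interval 0.377 to 0.936). Klrb1f (0.771, interval 0.659 to 0.904), Klrb1b (0.821, interval 0.731 to 0.924) and Klrc1 (0.877, interval 0.799 to 0.963) were lower by less than 1.5-fold, and Klre1 (1.43, interval 1.24 to 1.66), Klrc2 (1.28, interval 1.03 to 1.59) and Klrd1 (1.27, interval 1.14 to 1.42) higher by less than 1.5-fold. With Ncr1 not required the ratios of all 10 genes in the wider ILC1 gate were above 1, between 1.38 for Klri1 and 3.05 for Klre1. The direction of the lower genes thus holds for the gate with Ncr1. In NK cells the largest ratio was that of Klrb1b, at 315 CPM in the knockout and 244 CPM in WT HFD+HDCA (1.29, interval 1.17 to 1.42), followed by Klrc1 (1.17, interval 1.1 to 1.25). In gamma-delta T cells Klrb1b had 1 UMI in the knockout and 33 in WT HFD+HDCA (0.0624, interval 0.00153 to 0.373), and Klri1 and Klri2 were at 0.494 (0.166 to 1.23) and 0.502 (0.224 to 1.02), with intervals that include 1. The gamma-delta T cells of the knockout numbered 59 and differed in makeup, with Il17a, for a cytokine of one gamma-delta T cell type, at 226 CPM, against 31.5 CPM in WT HFD+HDCA. The gate gene Trdc was at 319.9 CPM in gamma-delta T cells of the knockout, against 438 CPM in WT HFD+HDCA and 444 CPM in WT HFD. In NK cells Trdc was at 2.09 CPM in the knockout, with a UMI in 1.18% of cells, against 60.0 CPM in 25.4% of cells in WT HFD+HDCA and 49.3 CPM in 22% in WT HFD. The part of this makeup and of the Trdc gate in the ratios was not tested.

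**Figure D5:**
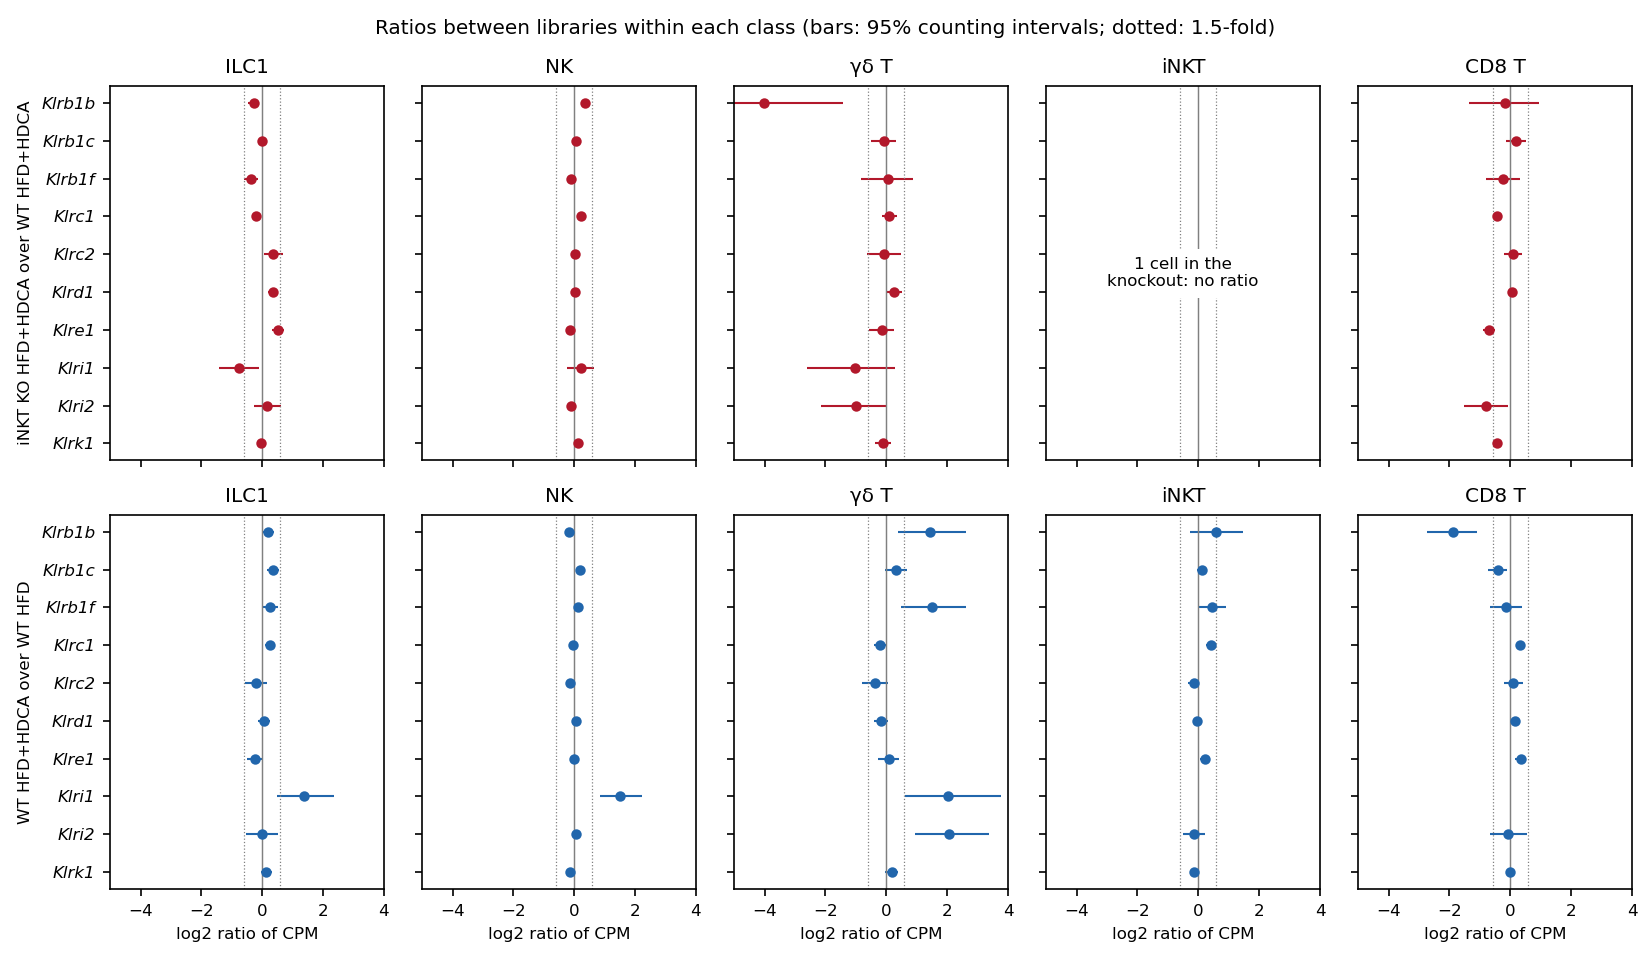
Log2 ratio of CPM between libraries for each gene with 20 or more UMIs over both libraries, by class. The upper row is iNKT KO HFD+HDCA over WT HFD+HDCA and the lower row WT HFD+HDCA over WT HFD, bars are conditional exact 95% intervals (that of Klrb1b in gamma-delta T cells of the upper row runs off the axis), and dotted lines mark 1.5-fold. Most points lie between the dotted lines, and Klri1 lies right of them in ILC1, NK and gamma-delta T cells of the lower row.

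Genes that work with these receptors were described from 3 lists chosen by function. Of 15 ligand genes, 13 were in the files and 6 or 7 per class had 20 or more UMIs. With HDCA in WT mice 0 of them passed 1.5-fold in any class. In the knockout the ligand genes past 1.5-fold, all higher, were 2 of 7 measured for NK cells, 1 of 7 for CD8 T cells and 1 of 6 for gamma-delta T cells. Over all genes 4.12%, 3.91% and 13.4% were higher in these classes, in that order. Raet1e, for a ligand of NKG2D, was at 22.6 CPM in NK cells of the knockout, against 13.8 CPM in WT HFD+HDCA. In gamma-delta T cells it was at 39.7 CPM, against 19.3 CPM. Clec2g, for a ligand of NKR-P1F, had 16 UMIs, against 8, in NK cells and 18, against 13, in CD8 T cells. The class sums of WT HFD+HDCA were deeper in both. The ratios of Raet1e and Clec2g have no interval here, and the Clec2g counts are small. H2-T23, for the Qa-1 ligand of the NKG2 receptors, was at 671 (iNKT KO HFD+HDCA), 561 (WT HFD+HDCA) and 529 (WT HFD) CPM in ILC1, against 431, 470.4 and 426 CPM in NK cells. Clec2d, a ligand of NKR-P1B, had ratios of 1.02 (0.917 to 1.13) for the knockout over WT HFD+HDCA and 1.03 (0.926 to 1.14) for WT HFD+HDCA over WT HFD in NK cells.

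Of 14 adaptor and signalling genes, 12 to 14 per class were measured, and 3 were above 1.5-fold with HDCA in WT mice. They were 1 of 14 measured in ILC1 and 2 of 14 in CD8 T cells, where 7.33% and 4.22% of all genes were higher. Ptpn6, for an inhibitory phosphatase, was at 199 CPM in WT HFD+HDCA and 126 CPM in WT HFD in ILC1, and in CD8 T cells Syk had 38 UMIs, against 9, and Plcg2 40 UMIs, against 15. In the knockout Tyrobp was lower in CD8 and gamma-delta T cells and Ptpn11 higher in gamma-delta T cells (19 UMIs, against 25 UMIs in the deeper WT HFD+HDCA sum, with no interval here). Over all genes 5.32% were lower in CD8 T cells, and 9.96% were lower and 13.4% higher in gamma-delta T cells. Tyrobp, whose product DAP12 carries the signal of the CD94-NKG2C pair, followed the innate classes, at 2134 (iNKT KO HFD+HDCA), 2275 (WT HFD+HDCA) and 1945 (WT HFD) CPM in ILC1, 3561, 3943 and 3604 CPM in NK cells, 66.7 and 51.5 CPM in iNKT cells and 29.2, 45.3 and 35.8 CPM in CD8 T cells. Its ratio in the knockout over WT HFD+HDCA was 0.645 (0.55 to 0.755) in CD8 T cells and 0.516 (0.39 to 0.676) in gamma-delta T cells. Hcst, whose product DAP10 carries the signal of NKG2D, was spread more evenly, at 585 (iNKT KO HFD+HDCA), 595 (WT HFD+HDCA) and 575 (WT HFD) CPM in ILC1, 574, 492 and 533 CPM in NK cells, 545 and 607 CPM in iNKT cells and 518, 519 and 549.6 CPM in CD8 T cells. Of 13 other lectin receptor genes of the list found in the files, 1 to 5 per class were measured, and Klrg1 was the one past 1.5-fold with HDCA, in NK cells (1.58, interval 1.43 to 1.75) and iNKT cells (1.57, interval 1.05 to 2.39). In these classes 4.47% and 4.99% of all genes were higher. In the knockout Klrg1 was higher in ILC1 (2.89, interval 1.37 to 7.01, on 8 UMIs in WT HFD+HDCA) and lower in CD8 T cells (0.647, interval 0.527 to 0.791). Klrc3 was also past 1.5-fold there, at 10 UMIs in the knockout and 22 in WT HFD+HDCA. Its ratio in CD8 T cells was 0.633, with an interval of 0.268 to 1.39 that includes 1. Over all genes 10.6% were higher in ILC1 and 5.32% lower in CD8 T cells.

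Likeness of pattern was measured by Pearson's r of log2(CPM + 1) over 23 points, each a class in a library with 50 or more cells, which share libraries and depth. For Klrd1 the nearest other genes were Ctsd (r = 0.977) and Lta4h (r = 0.974), for Klrk1 Lta4h (r = 0.983), Enpp4 (r = 0.975) and Ctsd (r = 0.974), and for Klrc1 Samd3 (r = 0.986), Cd160 (r = 0.976) and Xcl1 (r = 0.975). Within the 10 genes, Klrb1c and Klrc2 were the most alike (r = 0.991), and Klrc1 and Klri1 the least (r = 0.664).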

How the data were processed

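CD45-positive mononuclear cells sorted from liver were sequenced in droplets, 1 RNA and 1 TCR library per group (the labels' treatment text names CD4+ cells instead). The deposited values are raw UMI counts per gene and barcode, counted with Cell Ranger 8.0.1 per the file headers. Per the submitters' processing notes the builds GRCm39 and mm10 were named. TCR contigs were deposited with counts of UMIs and reads per contig, already filtered as productive. Cells with 200 or more genes, under 10% mitochondrial UMIs and no Scrublet doublet call (3.52% to 4.85% called, scanpy 1.11.5) were kept: 6834 of 7153 barcodes in iNKT KO HFD+HDCA, 9678 of 10228 in WT HFD+HDCA and 6198 of 6479 in WT HFD. Cells with 5 or more UMIs of Cd79a, Cd79b and Ms4a1, or of Lyz2, Csf1r and Clec4f, stayed out of the lymphocyte classes.

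UMIs were summed over each class and divided by the class total (CPM). Levels have exact Poisson and ratios conditional exact 95% intervals (scipy 1.17.1). Shares of cells allow Clopper-Pearson intervals, all for counting error only, and the floor for a count of 0 is 3 counts. With 1 library per group no test between groups was made. Between classes, sums of 20 or more cells were tested with edgeR 4.0.16 (R 4.3.3, quasi-likelihood, TMM factors, filterByExpr, Benjamini-Hochberg adjustment over all 11431 genes, two-sided), with DESeq2 1.42.0 as an alternative. On counts simulated for ILC1 against NK cells with these genes, 62% of 2-fold and 91% of 4-fold changes were recovered and 0.0927% of unchanged genes were called. Apart from the set changes, the simulated counts had the same mean per gene in all classes, no library effect and the dispersions fitted to these data. They meet the assumptions of the fit and cannot show how often it errs on the real sums. The edgeR test was added after seeing the data, and the members, lists and gates were chosen with earlier results of these data known. Named besides the 10 members are up to 4 genes of each partner list with the most UMIs, and for the 3 members with the most UMIs the 3 nearest genes, of which 1 is not reported here. Partner genes past 1.5-fold, and the subsets split by Klrg1, Ccl5, Cxcr3 and Nkg7, were named for their values or markers on top of that rule.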

Additional observations from a re-analysis of the deposited data

Results flagged for a closer look

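Klrb1b moved in opposite directions between WT HFD+HDCA and WT HFD in a pair of T cell classes, and the difference between the classes was not tested. In CD8 T cells its ratio was 0.27 (0.149 to 0.47), on 19 UMIs in WT HFD+HDCA and 45 UMIs in WT HFD, and over the alternatives it ran from 0.171 to 0.451. In gamma-delta T cells it was 2.68 (1.29 to 6.1), on 33 and 10 UMIs, with a range of 2.38 to 6.64. Of the gamma-delta T cell UMIs in WT HFD+HDCA, 27.3% came from 1 cell.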

How the results depend on the processing

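Of the summed ratios under the alternatives, 65 moved by less than their counting interval and 7 by more. With Ncr1 not required, the ratio in the wider ILC1 gate was 0.746 for HDCA in WT mice and 1.94 for the knockout. Under that gate 8 genes were highest in NK cells and 2 in ILC1 in iNKT KO HFD+HDCA, and 0 in ILC1 in WT HFD+HDCA and 2 in WT HFD. With 1 cell per clonotype, CD8 T cells were at 1.04 for HDCA and 0.928 for the knockout. Strict gates gave 0.883 in gamma-delta T cells for HDCA, leaving out cells with Klrg1 gave 1.01 in NK cells of the knockout, and median-of-ratios factors gave 1.05 in its ILC1. The cause of these moves was not tested.

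Thinning, which leaves fewer UMIs, lowered the share with any member UMI to 82.9% and 79.7% in iNKT cells, to 54.1%, 55.4% and 50.4% in CD8 T cells and to 75.9%, 81.6% and 72.7% in gamma-delta T cells. Without the limit on UMIs, 1 of the 10 genes was past 1.5-fold upward with HDCA in iNKT cells and 1 in CD8 T cells. Over all genes these were 2945 of 16416 in iNKT cells and 3397 of 18852 in CD8 T cells. With 50 UMIs required, 0 of 6 were in gamma-delta T cells for HDCA and 1 of 8, lower, for the knockout. Over all genes 206 of 5220 were higher and 255 lower for HDCA, and 406 of 4588 higher and 252 lower for the knockout. For single genes, 633 ratios stayed within their interval and the others moved outside it. Of the 694, 52 changed side of 1, and 6 of these were of ratios whose interval left out 1, all in the wider ILC1 gate with Ncr1 not required. They were Klrb1c at 0.812 and Klrc1 at 0.76 for HDCA, and Klrb1b at 1.79, Klrb1f at 1.62, Klrc1 at 1.86 and Klri1 at 1.38 for the knockout.

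For gamma-delta T against iNKT cells, leaving out the knockout library gave 2 members higher and 3 lower, beside 635 and 454 of 11285 genes. Leaving out either WT library leaves 1 iNKT sum. No filter gave 3 higher and 4 lower (684 and 634 of 21035 genes), and strict gates 2 higher and 0 lower (387 and 274 of 11242 genes). For ILC1 against NK, leaving out the Ncr1 requirement, chosen after seeing the data, gave 0 members higher and 7 lower, beside 2847 and 1996 of 11917 genes. Klrb1f was then at -0.53 and Klrc1 at -0.28 on the log2 scale. Taking the library out of the fit as a replicate block left ILC1 against NK at 3 members higher and 4 lower, beside 1126 and 948 of 11431 genes. Klri1 was then at 0.93 on the log2 scale. No paired analysis was possible because each condition has 1 library, so conditions could not be set against each other within a pair. Rare genes limit what this depth shows: Klri1 had 5 to 25 UMIs in the gamma-delta T cells of a library.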

Other observations

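Monocytes, gated on Lyz2 and Csf1r with no Cd3 or Ncr1 transcript, held more of 5 of the genes than B cells, with intervals of the ratio above 1 in all 3 libraries. The share of all genes higher in monocytes by this rule was not computed, so the count describes these genes only. Klrd1 was at 39.2 (iNKT KO HFD+HDCA), 50.2 (WT HFD+HDCA) and 34.3 (WT HFD) CPM in monocytes, against 3.68, 1.68 and 2.74 CPM in B cells. Klrk1 was at 15.9 (iNKT KO HFD+HDCA), 26.1 (WT HFD+HDCA) and 17.3 (WT HFD) CPM in monocytes, against 1.84, 1.1 and 1.98 CPM in B cells. Klrb1b was at 2.99 (iNKT KO HFD+HDCA), 4.16 (WT HFD+HDCA) and 3.25 (WT HFD) CPM in monocytes, against 0.537, 0.232 and 0.0944 CPM in B cells, Klrb1f at 4.98, 13.5 and 8.3 CPM, against 0.614, 0.868 and 1.04 CPM, and Klri2 at 2.32, 3.16 and 2.16 CPM, against 0.307, 0.174 and 0.189 CPM. The median depth was 8363 (iNKT KO HFD+HDCA), 9070.0 (WT HFD+HDCA) and 9435 (WT HFD) UMIs in monocytes and 4243, 4394 and 4505 UMIs in B cells, and after thinning a Klrd1 UMI was in 1.95, 3.42 and 2.1% of monocytes, against 0.378, 0.236 and 0.384% of B cells. The summed level in monocytes was 71 (iNKT KO HFD+HDCA), 102 (WT HFD+HDCA) and 68.5 (WT HFD) CPM.

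CD4 T cells carried these genes at 191 (iNKT KO HFD+HDCA), 199.7 (WT HFD+HDCA) and 180.2 (WT HFD) CPM in sum, of which Klrd1 made up 57.9, 60.5 and 50.7 CPM and Klrk1 48.9, 51.4 and 48.8 CPM.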
